A study of Mus musculus with 28 samples.

Results

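Germline stem (GS) cells, cultured stem cells of the male germline, were compared with 2 kinds of pluripotent line, embryonic germ (EG) cells and embryonic stem (ES) cells. The members were chosen by title alone, 2 GS arrays against 8 arrays with EG or ES in the title, which makes 10 of the 28 single-colour mouse expression arrays in the series. GS cells were male and of strain DBA/2. EG cells came from female and male cultures of the cross Rb(X.2)2Ad X 129/Sv, with 12.5 dpc primordial germ cells given as their source, 2 arrays of each sex. ES cells were the female line no5 of strain 129/Sv and the male line TMA5, an F1 hybrid of TgN (deGFP)20Imeg and MSM/Ms, with 2 arrays of each. The other 18 arrays held primordial germ cells, oogonia, spermatogonia and testis, and entered no mean that was compared. They did enter the estimate of the spread, the removal of spots, the choice of scaling probes and the choice of a probe for each gene. The labels do not say if the 2 arrays of a line were separate cultures, or if feeder cells were used. The p-values therefore reflect the spread between arrays, and that spread may be purely technical.

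Pluripotent cells are held in a self-renewing state by the transcription factors OCT4 (Pou5f1), SOX2 and NANOG together with a wider circle of naive-state factors, and they can form every tissue of the embryo. Spermatogonial stem cells normally make only sperm. They depend on GDNF, which acts through the receptors GFRA1 and RET, and on intrinsic factors such as NANOS2, ZBTB16 (PLZF) and ID4. The comparison thus sets a germline-restricted stem cell beside lines that carry the pluripotency network, and each gene was checked in EG and in ES cells separately and on both GS arrays.

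Levels are log2 signals scaled per array, with 0 at the 75th percentile of the probes measured on every array, and a level of 1 gene cannot be set against that of another. Probes well above background made up 70.9% to 73.9% of the array in GS cells, 58.0% to 59.0% in EG cells and 45.1% to 67.4% in ES cells. A probe counts as well above background by the scanner software's own flag, and a gene was tested where both arrays of at least 1 compared group had it, so that 2094 genes entered only through the side where they were bright. A gene here is a RefSeq symbol or, for a probe without one, its accession or probe name. Of 38726 such genes 13024 had a symbol, and the gene lists hold only these. Of 26797 genes tested between GS and the pluripotent lines, 11024 (41.1%) had a limma adjusted p under 0.05, 8341 (31.1%) of them higher and 2683 (10%) lower in GS. The median difference of all genes tested was 0.67 towards GS. Other scalings moved that median and the balance of directions: the share of called genes higher in GS was 75.7% here, 53.9% after quantile normalization, 49.7% with a percentile over all probes and 46.0% in the deposited values, in which the median was -0.27. GS arrays shared a slide and scan day with testis, EG arrays lay on another slide of the same scan day and ES arrays on a slide of another day, so slide, strain and cell type cannot be told apart. With slide as a random block (estimated correlation 0.645) 1898 genes were called.

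Against EG cells alone 9564 of 26425 genes (36.2%) were called, 26.9% higher and 9.28% lower. Against ES cells alone 10457 of 26542 (39.4%) were called, 30% higher and 9.39% lower. A stricter set, given below as genes "in both", held the genes that passed in both comparisons in 1 direction with both GS arrays outside the range of all 8 pluripotent arrays: 7124 of 26170 (27.2%), 5392 (20.6%) higher and 1732 (6.62%) lower. Genes with a symbol made up 2445 of the higher and 974 of the lower. The EG and ES comparisons share the GS arrays, so passing in both is not independent evidence. For a gene in both, the absence of overlap between the groups follows from the rule and adds no support. Opposite signs in the 2 comparisons were seen for 3 genes. The list counts below are to be read against the shares over all genes. These were 31.1% higher and 10% lower in the pooled comparison, and 20.6% and 6.62% in both. EG and ES cells differed from each other in 1144 of 23225 genes (4.93%).

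**Figure D1:**
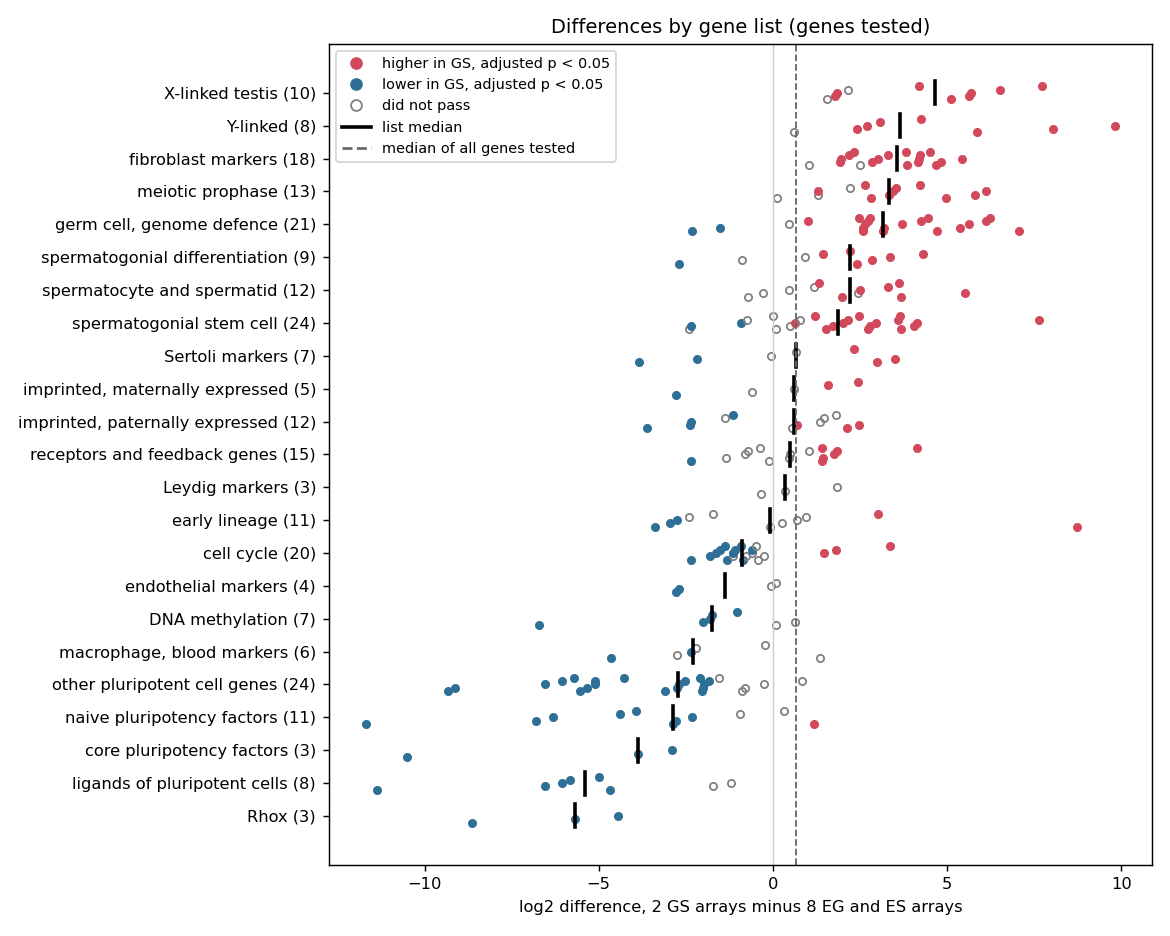
Each point is the log2 difference of a gene between the 2 GS arrays and the 8 EG and ES arrays, grouped by gene list with the number tested in parentheses; filled points passed limma's adjusted p of 0.05, black bars are list medians and the dashed line is the median of all genes tested. Rhox genes, ligands and pluripotency factors have the lowest medians, and germ cell, meiotic, fibroblast, Y-linked and X-linked testis genes the highest.

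The 3 core pluripotency factors were all lower in GS cells than in EG and in ES cells (median -3.86), by differing amounts. Pou5f1, which encodes OCT4, stood at -0.06 in GS replicate 1 and 2.33 in replicate 2, and at 3.73 to 4.21 (median 4.06) in the pluripotent lines. The groups did not overlap, and the difference was -2.90 ± 0.47 (SE; adjusted p = 0.000167), a 7.45-fold lower mean. Nanog, the homeobox gene that sets the naive state, was at -10.94 and -9.54 in GS cells, where only 1 of 2 arrays was well above background, against -0.74 to 1.02 (median 0.18). Its difference of -10.49 ± 0.40 (adjusted p = 4.86e-11) was the only one of the 3 that passed with slide as a random block (adjusted p = 3.94e-06; Pou5f1 0.0811, Sox2 0.291). Sox2 was divided between the GS arrays: replicate 1 lay at -6.63 and replicate 2 at -0.94, close under the pluripotent range of -0.25 to 0.74 (median -0.09). Its pooled difference of -3.86 ± 0.93 (adjusted p = 0.00364) shrank to -1.01 (adjusted p = 0.315) without GS replicate 1. All 4 measured Sox2 probes and both Pou5f1 probes were lower in GS. Other Nanog probes gave smaller differences, -8.50 and -7.49.

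Of 11 naive-state factors tested, 8 were lower in GS, 1 was higher and 2 did not pass, with a median of -2.88; 7 were lower in both EG and ES. Esrrb, an orphan nuclear receptor, was at -5.53 and -4.80 against 0.45 to 2.04 (median 0.99), a difference of -6.32 ± 0.26 (adjusted p = 1.02e-10). Zfp42 (REX1), a widely used marker of undifferentiated cells, was at -5.79 and -4.02 against -0.83 to -0.22 (median -0.51), a difference of -4.39 ± 0.36 (adjusted p = 2.03e-07). For neither gene did the groups overlap. Nr0b1 (DAX1), an X-linked nuclear receptor gene, was well above background on all 8 pluripotent arrays and on neither GS array, at least 887-fold lower in GS (adjusted p = 7.48e-09). Prdm14, Klf2, Klf5 and Gbx2 were also lower, with differences of -6.81 to -2.32. Gbx2 lost its call without GS replicate 1 (-1.54, adjusted p = 0.0562). Nr5a2 was lower too (-2.88 ± 0.49), with GS replicate 2 inside the pluripotent range.

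Klf4, a reprogramming factor, was the 1 naive gene called higher. It was at 1.20 and -0.90 in GS cells and at -2.15 to 0.44 (median -1.11) in the pluripotent lines, so replicate 2 fell inside their range. The difference of 1.18 ± 0.43 (adjusted p = 0.0395) did not pass against EG (adjusted p = 0.25), and without GS replicate 1 it was 0.13 (adjusted p = 0.87). Tbx3 (-0.93 ± 1.01, adjusted p = 0.486) and Tfcp2l1 (0.33 ± 0.41, adjusted p = 0.548) did not pass. With slide as a random block 5 of the 11 were called, all lower.

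**Figure D2:**
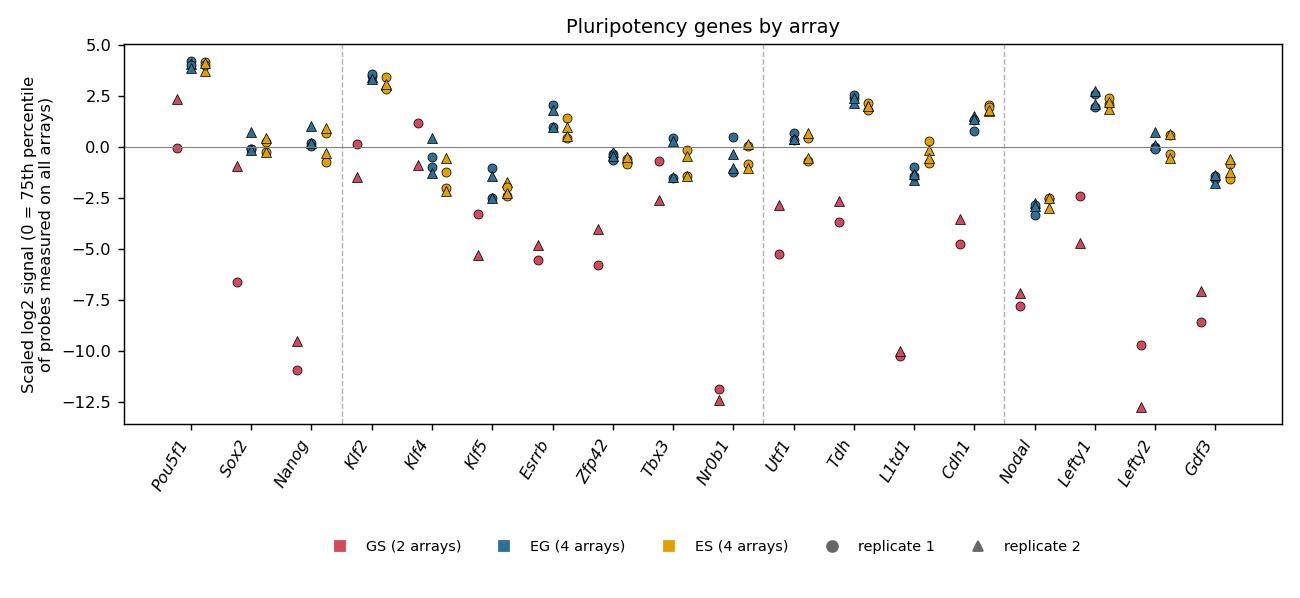
Scaled log2 signal of 18 pluripotency genes on each array, GS in red, EG in blue and ES in yellow, circles for replicate 1 and triangles for replicate 2; dashed lines part core factors, naive factors, other genes and ligands. Nanog, Nr0b1 and Lefty2 lie near the bottom of the scale on the GS arrays, Pou5f1 lies at -0.06 and 2.33, and the 2 GS values of Sox2 are far apart.

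Among 24 other genes known for high expression in pluripotent cells, 19 were lower in GS, none was higher and 5 did not pass (median -2.72; 16 lower in both, 14 called with slide as a random block). Tdh, the threonine dehydrogenase on which mouse ES cells rely, was at -3.68 and -2.64 against 1.80 to 2.57 (median 2.14), a difference of -5.34 ± 0.24. L1td1, which encodes an RNA-binding protein, differed by -9.34 ± 0.81, with only 1 of 2 GS arrays well above background. The adhesion gene Cdh1 (E-cadherin) was at -4.75 and -3.52 against 0.80 to 2.05 (median 1.65), a difference of -5.71 ± 0.34.

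The PGC7 gene Dppa3 (-2.51 ± 0.29), Utf1 (-4.27 ± 0.46), Eras (-5.53 ± 0.85) and Gdf3 (-6.55 ± 0.32) were lower as well, without overlap between the groups. In contrast Lin28a, an RNA-binding protein that blocks let-7 maturation, was at -5.90 and -4.64 against -5.03 to -3.97 and did not pass (-0.89 ± 0.43, adjusted p = 0.104). The Lin28a difference depended on the GS array, at -0.26 without replicate 1 and -1.53 without replicate 2. The paralog Lin28b did not pass either (-0.26 ± 0.21, adjusted p = 0.347), nor did Spp1, Mycn and Sall1.

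Secreted factors made by pluripotent cells had a median of -5.41, or -4.84 with the dim genes at their bounds; 6 of 8 tested were lower, all 6 in both. A random block for slide gave 4 lower calls, and Fgf4 (adjusted p = 0.0544) and Fgf15 (adjusted p = 0.0656) were not called. Gdf3 and Fgf4 are counted in this list and in the preceding one. Nodal was at -7.80 and -7.18 in GS cells and at -3.33 to -2.51 (median -2.80) in the others (-4.68 ± 0.62, adjusted p = 2.58e-05). Of the genes for its antagonists, Lefty1 differed by -5.81 ± 0.46. Lefty2, not well above background on either GS array, was at least 1307-fold lower. The log2 differences of other Lefty2 probes were smaller, -10.39 to -8.70. Fgf4, the FGF that primes ES cells for commitment, was at least 23.9-fold lower, and Fgf15, with 1 of 2 GS arrays well above background, differed by -5.00 ± 0.93. Bmp4 (-1.20 ± 0.64) and Fgf5, measured on only 4 of the 8 pluripotent arrays, did not pass.

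Receptors and feedback genes of the LIF, GDNF, FGF and KIT pathways showed no such shared direction: of 15 tested, 6 were higher, 1 was lower and 8 did not pass, and the median of 0.50 became -0.06 with the percentile over all probes. The shares over all genes tested were 31.1% higher and 10% lower. None of the 15 was called with slide as a random block. Gfra1, the GDNF co-receptor, was well above background in both GS arrays (-8.66 and -5.50) and in no pluripotent array, at least 4.97-fold higher in GS (adjusted p = 0.00276). Without GS replicate 2 the Gfra1 difference no longer passed (adjusted p = 0.114). Kit, the receptor of differentiating spermatogonia, was at -3.51 and -3.74 against -6.38 to -4.29 (1.43 ± 0.26). Stat3 (1.42 ± 0.27) and the ERK phosphatase Dusp6 (1.41 ± 0.35) were higher in both EG and ES comparisons, while Lifr, Spry1 and Spry2 did not pass. Dusp6 lost its call without GS replicate 1 (adjusted p = 0.0695). The calls depended on the scaling: 3 were higher and 3 lower with the percentile over all probes, and 1 higher and 3 lower in the deposited values.

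Of 24 spermatogonial stem cell and GDNF-response genes tested, 16 were higher in GS, 2 were lower and 6 did not pass. Their median was 1.86, or 1.84 with bounds, 12 were higher in both and 5 were with slide as a random block. With the percentile over all probes 13 were higher and 2 lower, and in the deposited values 9 and 4 (median 0.92). Nanos2, the RNA-binding protein that keeps male germ cells undifferentiated, was at -5.08 and -2.41 in GS cells and not well above background on any pluripotent array, at least 50.3-fold higher (adjusted p = 3.05e-06). The log2 differences of the Nanos2 probes ranged from 4.30 to 7.65. Zbtb16 (PLZF) was at -7.44 and -6.99 against -11.68 to -10.10 (median -11.00), 3.67 ± 0.76 higher (adjusted p = 0.00118), with 1 of 8 pluripotent arrays well above background. Both GS arrays lay above every EG and ES array for these genes. With slide as a random block Nanos2 was called (adjusted p = 0.00293) and Zbtb16 was not (adjusted p = 0.0961).

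Id4 was at -1.31 and -1.20 against -5.37 to -2.91 (median -3.86), a difference of 2.80 ± 0.24 (adjusted p = 3.28e-07), and its 5 probes ranged from 1.94 to 2.80. Foxo1 (2.01 ± 0.21), the Dmrt1 gene of the male germline (4.05 ± 0.75), Lhx1 (1.52 ± 0.27) and Mcam (2.14 ± 0.37) were also higher without overlap. Bcl6b, a GDNF target, was higher by only 0.64 ± 0.24, within the shift of all genes, passed against ES but not EG (adjusted p = 0.28), and changed sign in the deposited values (-0.30). It was not called without GS replicate 1 (adjusted p = 0.0903) or without replicate 2 (adjusted p = 0.236).

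Etv5, the ETS factor downstream of GDNF and FGF, went the other way: it was at -8.14 and -5.64 in GS cells and at -5.12 to -3.80 (median -4.64) in the pluripotent lines. The difference was -2.36 ± 0.58 (adjusted p = 0.00406), and without GS replicate 1 it was -1.11 (adjusted p = 0.24). Itga6 was the other member called lower (-0.92 ± 0.34), though not against ES, and without GS replicate 1 it was -0.31 (adjusted p = 0.63). Egr2, Pou3f1 and Nanos3 were called higher in the pooled comparison but were not among the 12 in both, and Egr3 did not pass (adjusted p = 0.0708). The T gene was divided between the GS arrays at -10.13 and -4.28.

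**Figure D3:**
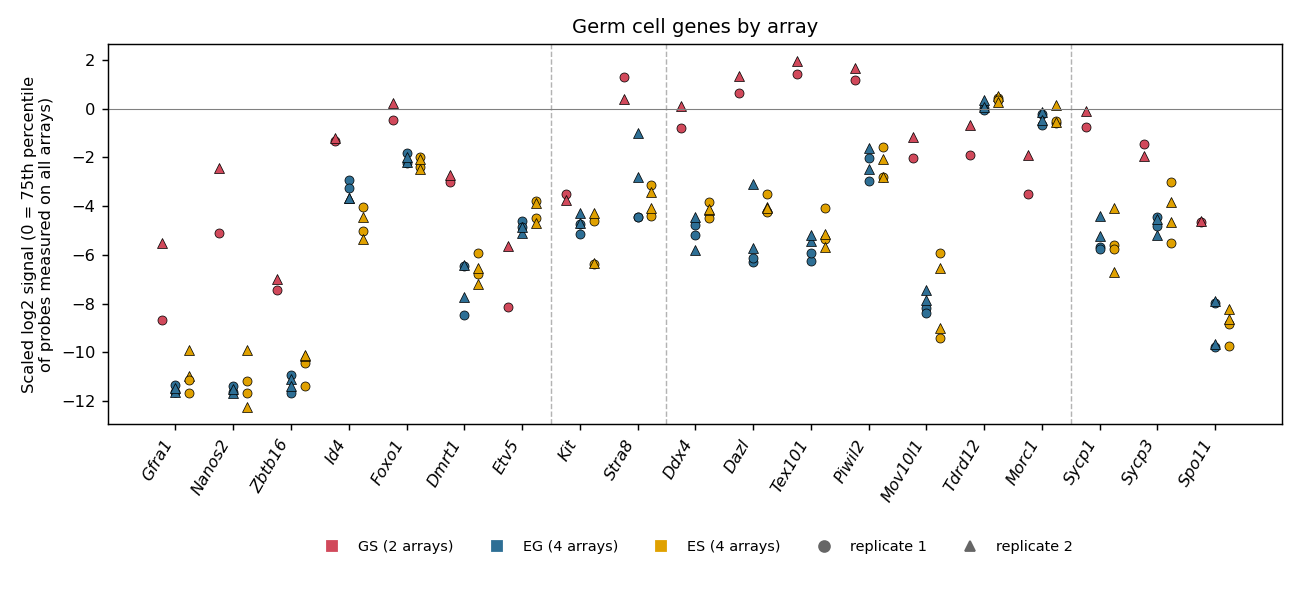
Scaled log2 signal of 19 germ cell genes on each array, GS in red, EG in blue and ES in yellow, circles for replicate 1 and triangles for replicate 2; dashed lines part stem cell, differentiation, germ cell and meiotic genes. GS arrays lie above the 8 others for Nanos2, Id4, Ddx4, Dazl, Tex101 and Sycp1 and below them for Etv5, Tdrd12 and Morc1.

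Genes of spermatogonial differentiation were also mostly higher in GS cells, 6 of 9 with 1 lower and 2 not passing (median 2.21). In both, 5 were higher, and with slide as a random block 2 were. The deposited values gave 3 higher and 2 lower (median 1.27). Stra8, the retinoic acid target needed for entry into meiosis, was at 1.30 and 0.40 against -4.46 to -1.02 (median -3.75), a difference of 4.32 ± 0.90 (adjusted p = 0.00128). It was not called with slide as a random block (adjusted p = 0.118). Crabp1 (2.83 ± 0.36) and Ccnd2 (3.36 ± 0.40) did not overlap between the groups either. Upp1, a uridine phosphorylase also counted with the pluripotent genes, was lower, with a difference of -2.69 ± 0.41.

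Germ cell RNA-binding, piRNA and genome defence genes held the largest number of calls of the 23 lists: 18 of 21 tested were higher in GS, 2 lower and 1 did not pass (median 3.16; 16 higher in both). Without GS replicate 1 the list also had 18 higher and 2 lower, and 15 were higher with slide as a random block. Tex101, a germ cell surface glycoprotein, was at 1.44 and 1.95 against -6.25 to -4.08 (median -5.40), 7.07 ± 0.31 or 134-fold higher (adjusted p = 2.36e-10). Ddx4, the VASA helicase that marks germ cells, was at -0.77 and 0.10 against -5.79 to -3.81 (median -4.47), and its difference was 4.26 ± 0.39 (adjusted p = 7.69e-07). Dazl, an RNA-binding protein gene of germ cells, was at 0.63 and 1.36 against -6.30 to -3.09 (median -4.17), 5.63 ± 0.58 higher (adjusted p = 2.2e-06). GS arrays lay clear of all 8 others for these 3 genes, and every measured probe of Ddx4 and Dazl gave 4.26 to 5.99.

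The piRNA pathway, which silences transposons in male germ cells, was represented by Piwil2 (3.71 ± 0.22), Mov10l1 (6.24 ± 0.52), Mael (4.46 ± 0.38) and Tdrd7 (4.71 ± 0.26), all higher in both. Fkbp6 (5.37 ± 0.43) and the bromodomain gene Brdt (6.12 ± 0.41) were higher too. Tdrd12 and Morc1 were lower in GS: Tdrd12 was at -1.90 and -0.65 against -0.06 to 0.52 (-1.53 ± 0.26, adjusted p = 0.000246), and Morc1 at -3.52 and -1.88 against -0.68 to 0.15 (-2.32 ± 0.42, adjusted p = 0.000394). Neither overlapped, although with slide as a random block neither was called.

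Meiotic prophase genes were higher in GS for 10 of 13 tested, with none lower and 3 not passing (median 3.33; 9 higher in both, 7 with slide as a random block). Sycp1, a transverse filament protein of the synaptonemal complex, was at -0.74 and -0.10 against -6.69 to -4.07 (median -5.62), a difference of 4.97 ± 0.46 (adjusted p = 8.58e-07). Sycp3 of its lateral element was at -1.44 and -1.96 against -5.50 to -3.00, 2.80 ± 0.36 higher. Spo11, which makes meiotic double-strand breaks, was at -4.65 and -4.59 against -9.79 to -7.90 (4.22 ± 0.33), and Sycp2 (6.13 ± 0.73), Tex12 (5.79 ± 0.35) and Stag3 (3.45 ± 0.35) were higher as well. Other Spo11 probes gave only 1.67 and 2.75, and the Sycp2 probes ranged from 1.03 to 6.32. Dmc1 differed by 1.31 ± 0.38 but not against ES (adjusted p = 0.38), and Hormad1 did not pass (0.12 ± 0.50, adjusted p = 0.871).

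The 6-base palindrome CACGTG, an E-box that reads alike on both strands, was searched in the promoters. Among 16 germ cell and genome defence genes with a RefSeq promoter (assembly GRCm38.p6, 250 bases before to 50 after the start), 8 (50%) held it, and 5 of 13 meiotic genes (38.5%). The share was 9.91% of 8605 genes tested against both EG and ES, 10.2% of those higher in both, 10.8% of those lower in both and 7.24% of all 27025 promoters. Among the other lists the CACGTG share ranged from 0 of 16 cell cycle promoters to 2 of 8 naive-factor promoters. The octamer ATGCAAAT or its reverse complement occurred in 0 of 3 core and 1 of 8 naive-factor promoters, against 1.62% of the genes tested. Its share was highest in the early lineage list, 2 of 8 promoters, and several lists held none. A match describes the letters and no array value bears on binding. The windows around the first match are shown for the 6 matching genes with the largest differences, 5′ to 3′ on the gene's strand, with the palindrome in capitals, to let the flanks be compared.
Mov10l1: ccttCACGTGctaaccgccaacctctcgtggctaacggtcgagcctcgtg
Brdt: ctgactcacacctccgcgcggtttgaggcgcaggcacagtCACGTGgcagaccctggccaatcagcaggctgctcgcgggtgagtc
Tex12: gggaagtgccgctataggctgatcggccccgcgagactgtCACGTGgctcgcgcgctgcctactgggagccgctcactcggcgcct
Fkbp6: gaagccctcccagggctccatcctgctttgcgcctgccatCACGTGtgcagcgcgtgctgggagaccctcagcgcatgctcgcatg
Sycp1: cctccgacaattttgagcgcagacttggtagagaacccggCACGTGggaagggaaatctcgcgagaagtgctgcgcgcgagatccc
Mael: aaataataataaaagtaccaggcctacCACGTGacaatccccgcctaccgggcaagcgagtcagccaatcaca
The windows lie at chr15:88982744-88982793 on the plus strand for Mov10l1, chr5:107331076-107331161 plus for Brdt, chr9:50561316-50561401 minus for Tex12, chr5:135350100-135350185 minus for Fkbp6, chr3:102936149-102936234 minus for Sycp1 and chr1:166238922-166238994 minus for Mael. All are upstream of the annotated start, with the palindrome's first base 78 bases before it in Brdt, 93 in Tex12, 94 in Sycp1, 101 in Fkbp6, 223 in Mael and 246 in Mov10l1.

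Genes of later spermatogenesis were higher in smaller part. Of 17 spermatocyte and spermatid genes with a probe, 12 were tested, 7 were higher and 5 did not pass (median 2.21). In both, 4 were higher, and with slide as a random block 1 was. The deposited values gave 5 higher and 1 lower, and quantile normalization 4 and 0. Tnp1, a transition protein of condensing spermatids, was at least 15-fold higher in GS, where it stood at -6.65 and -4.34. Hspa2 (2.49 ± 0.47) and Ldhc (1.33 ± 0.28) were higher in both comparisons, and Ldhc lost its call without GS replicate 2 (adjusted p = 0.0606). The protamine gene Prm1 did not pass (1.18 ± 1.06, adjusted p = 0.392), and Acrv1 and Pgk2 were not well above background on any of the 10 arrays.

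X-linked testis genes were higher in GS for 8 of 10 tested (median 4.66; 6 in both, 5 with slide as a random block). Tex13b was at -0.06 and 0.57 against -9.75 to -3.53 (median -7.69), 7.72 ± 0.75 higher. Taf7l (6.53 ± 0.80), a testis TFIID subunit, Tktl1 (5.63 ± 0.50) and the meiotic gene Tex11 (4.19 ± 0.33) were also higher. The X-linked Rhox homeobox genes differed the other way: all 3 tested were lower in both and with slide as a random block. Rhox5 was at -7.84 and -7.11 against -0.51 to 2.03 (median 1.29), a difference of -8.64 ± 0.34 (adjusted p = 6.16e-11), or 399-fold lower. Rhox6 (-5.67 ± 0.27) and Rhox9 (-4.44 ± 0.28) were lower too.

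Of 8 Y-linked genes tested 7 were higher in GS and Sry did not pass (median 3.65, or 3.11 with bounds; 5 in both, 3 with slide as a random block), but 4 of the 8 pluripotent arrays were female. Eif2s3y, a ubiquitous translation factor gene, was at -2.66 and -2.50 in GS cells and at -2.84 to -2.16 in the 4 male EG and ES arrays, so these overlapped. The 4 female arrays lay at -11.97 to -6.75. Kdm5d, Usp9y, Zfy1, Zfy2 and Rbmy were higher in GS than on every male array as well. In the pooled comparison Zfy1 lost its call without GS replicate 1 (adjusted p = 0.0622) or replicate 2 (adjusted p = 0.0506). Rbmy, a testis RNA-binding protein family, was at -0.93 and -0.45 against -10.68 to -10.10 on the male arrays (9.63 higher, adjusted p = 8.53e-07 in male lines only), and Usp9y at -3.16 and -2.23 against -10.43 to -8.48 (6.83 higher, adjusted p = 6.24e-07). The male EG and ES arrays overlapped the female arrays for Rbmy, Kdm5d and Zfy2. In that order, the female arrays lay at -11.88 to -8.73, -11.49 to -9.28 and -11.80 to -10.83. Differences of these genes from the male arrays thus rest on a signal not clearly above that of female cells, and their size is uncertain. Rbmy is a multicopy family, so its value is also uncertain as to the copy.

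DNA methylation genes were lower or did not pass: 5 of 7 tested were lower and none higher (median -1.76; 3 lower in both, 3 with slide as a random block). Dnmt3l, the catalytically inactive cofactor of de novo methylation, was at -3.69 and -4.58 against 1.99 to 3.38 (median 2.40), a difference of -6.70 ± 0.65 or 104-fold lower (adjusted p = 1.35e-06). Dnmt3b was at -0.05 and 0.23 against 1.00 to 3.01 (median 1.94), 3.99-fold lower (adjusted p = 2e-05), and all 9 of its probes were lower. The groups did not overlap for either gene. Dnmt3a did not pass (0.63 ± 0.30, adjusted p = 0.106), and its probes disagreed in sign, with 1 at -1.13 and 5 at 0.52 to 0.70. Dnmt1 did not pass (0.10 ± 0.39, adjusted p = 0.86). Tdg (-1.79 ± 0.33), the glycosylase of active demethylation, was lower in both, and Tet2 and Uhrf1 were lower in the pooled comparison without being in both.

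Imprinted genes, expressed from 1 parental allele, divided. Among 12 paternally expressed genes 3 were higher, 4 lower and 5 did not pass (median 0.61, near that of all genes and -0.33 in the deposited values), and of 5 maternally expressed genes 2 were higher and 1 lower. Of all genes tested, 31.1% were higher and 10% lower. Under the random slide block the paternally expressed genes had 0 higher and 2 lower and the maternally expressed 1 higher and 0 lower: Ndn (adjusted p = 0.0942), Dlk1 (0.211), Slc38a4 (0.0696) and Phlda2 (0.0649) were not called. Snrpn was at -5.76 and -5.60 against -2.48 to -1.51 (-3.61 ± 0.50), and Mest (-2.35 ± 0.32) and Slc38a4 (-2.37 ± 0.37) were lower too. Higher were Ndn (2.47 ± 0.52), Dlk1 (2.13 ± 0.47) and, of the maternally expressed genes, Cdkn1c (2.43 ± 0.33), while Phlda2 was lower (-2.79 ± 0.43). Dlk1 and Ndn did not pass without GS replicate 1, and Peg3, at -4.81 and -7.37 in GS cells, did not pass (-1.37 ± 0.91, adjusted p = 0.24). Zrsr1 (0.68 ± 0.19) changed sign in the deposited values (-0.26) and lost its call without GS replicate 2 (adjusted p = 0.0685).

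Of the cell cycle genes 11 of 20 were lower, 3 higher and 6 did not pass (median -0.89; 8 lower and 3 higher in both). Rrm2, a ribonucleotide reductase subunit, was at -1.65 and -1.08 against 0.65 to 1.38 (median 0.90), a difference of -2.36 ± 0.20, and the mitotic kinases Plk1 (-1.82 ± 0.26), Cdk1 (-1.64 ± 0.40) and Aurka (-1.51 ± 0.24) were lower. Cdk1 did not pass without GS replicate 1 (-1.09, adjusted p = 0.146). Without GS replicate 1 the list held 3 lower and 2 higher calls, and with slide as a random block 2 and 1. Cyclin D2 (Ccnd2, above) and cyclin D1 (Ccnd1, 1.46 ± 0.31) were higher, as was the inhibitor gene Cdkn1a (1.82 ± 0.36), which without GS replicate 1 was not called (0.77, adjusted p = 0.0661).

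Early lineage genes, which mark differentiation in pluripotent cultures, had 2 higher, 3 lower and 6 not passing of 11 tested. Under the random slide block 1 was higher and 1 lower, and Foxa2 (adjusted p = 0.104), Sox17 (0.172) and Pax6 (0.051) were not called. Afp, the fetal serum protein of yolk sac and liver, was at -1.27 and 0.05 in GS cells and at -10.18 to -7.80 (median -9.73) in the others, 8.73 ± 0.94 higher (adjusted p = 3.51e-06) and called with slide as a random block. Only 4 of the 8 pluripotent arrays had Afp well above background, so its difference rests partly on signal not above background. Foxa2 was higher by 3.03 ± 0.53 with overlap. Krt18 (-2.96 ± 0.34) was lower. Sox17 and Pax6, which entered the test only through the pluripotent arrays, were lower as well. Sox17 lost its call without GS replicate 1 (adjusted p = 0.068), and the second Pax6 probe was well above background on none of the 10 arrays.

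Outside the lists, 12 named genes stood highest in GS by the smaller of the 2 GS arrays' differences. They were picked only among genes well above background on both GS arrays. Cartpt, a neuropeptide gene, was at -2.75 and -2.05 against -11.66 to -8.75, with 1 of 8 pluripotent arrays well above background (7.93 ± 0.77, taken against a signal mostly not above background). Bnc1, a zinc finger gene of spermatogonia and keratinocytes, differed by 8.10 ± 0.58 and Nutm1, a testis gene, by 7.72 ± 0.45. Krt24, a keratin gene, was well above background only in GS among the 10 arrays, at least 42.0-fold higher. Asb9, Serpinb2, Ccdc172, the WNT agonist Rspo2, the kinase gene Mapk10, Slpi and S100a8 were also among the 12, at 6.39 to 7.94. Of the 8 pluripotent arrays, Asb9 and Rspo2 were well above background on 2 each, Bnc1 on 3 and Nutm1 on 6. Serpinb2 and S100a8 were so on 4 each, Ccdc172 and Slpi on 5 and Mapk10 on all 8. Differences of the genes dim on some of these arrays rest partly on signal not above background.

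The 12 lowest were picked only among genes well above background on all 8 pluripotent arrays. Gtsf1l was at -10.27 and -9.89 in GS cells against -1.18 to -0.05 (median -0.45), a difference of -9.56 ± 0.29 (adjusted p = 3.54e-12), with 1 of 2 GS arrays well above background. Ooep (-7.27 ± 0.30) and Khdc3 (-7.94 ± 0.47), whose proteins belong to the subcortical maternal complex of oocytes, are both on chromosome 9. Mcf2, Krt42, Fam25c, Aire, the thymic autoimmune regulator, and Slc5a11 were lower, with differences of -8.74 to -7.08. Aoah, Klk1, Mep1b and Robo4 were not well above background on either GS array, at least 48.6, 35.5, 38.8 and 89.0-fold lower.

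Markers of fibroblasts and feeder cells moved with the comparison. All 18 were well above background on both GS arrays, 11 to 17 of them on each EG array and 15 to 18 on each ES array. Their summed level on the log2 scale was 6.00 in GS replicate 1 and 3.55 in replicate 2, against 1.20 to 2.96 in EG and 1.07 to 2.99 in ES cells. Col1a1 was at 2.75 and 0.55 against -5.03 to 0.50 (median -1.48), 3.31 ± 0.84 higher (adjusted p = 0.00508), and 16 of 18 markers were called higher (median 3.57). Col1a1 lost its call without GS replicate 1 (2.21, adjusted p = 0.167). Without GS replicate 1, 3 of the 18 were higher, and 1 with slide as a random block. Replicate 1 exceeded replicate 2 for 17 of the 18 markers, with a median gap of 2.76 where that of all genes tested was 0.11.

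The gap between the GS arrays differed by list. In the germ cell list replicate 1 exceeded replicate 2 for only 2 of 21 genes, and in the core list for 0 of 3. Among the 5392 genes higher in both, 589 (10.9%) had GS arrays over 2 log2 units apart, 521 of them higher in replicate 1. Without GS replicate 1 the counts were 18 higher and 2 lower for the germ cell list, 9 and 0 for the meiotic, 12 and 0 for the stem cell, 0 and 2 for the core and 0 and 16 for the other pluripotent genes. What part fibroblast RNA had in the remaining differences was not tested.

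Markers of other cells gave smaller or mixed differences. Sertoli markers had 3 higher and 2 lower of 7 tested, where 31.1% of all genes were higher and 10% lower. Wt1 (3.52 ± 0.45), Sox9 (adjusted p = 0.000357) and Inha (2.32 ± 0.69) were higher. The 2 lower members, Cst9 and Ptgds, entered the test only through the pluripotent arrays, and with the stricter filter on dim genes 0 of 5 were lower. Modelling slide as a random block gave 1 higher and 0 lower: Sox9 (adjusted p = 0.143), Cst9 (0.134) and Ptgds (0.319) were not called. The summed level of the Sertoli markers was -2.56 to -1.75 in GS, -3.57 to -2.58 in EG and -4.79 to -3.88 in ES cells. None of 3 Leydig markers passed. Macrophage and blood markers had 2 of 6 lower, but 4 of the 6 entered the test only through 1 side, and 0 were lower when either GS array was left out. Adgre1 (F4/80) was not called without GS replicate 1 (adjusted p = 0.0601) or replicate 2 (adjusted p = 0.0907). Endothelial markers had 2 of 4 lower, Tek (-2.69 ± 0.45) and Esam (-2.77 ± 0.62). With slide as a random block 0 of the macrophage and blood and 0 of the endothelial markers were called (adjusted p = 0.0777 for Tek and 0.19 for Esam).

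**Figure D4:**
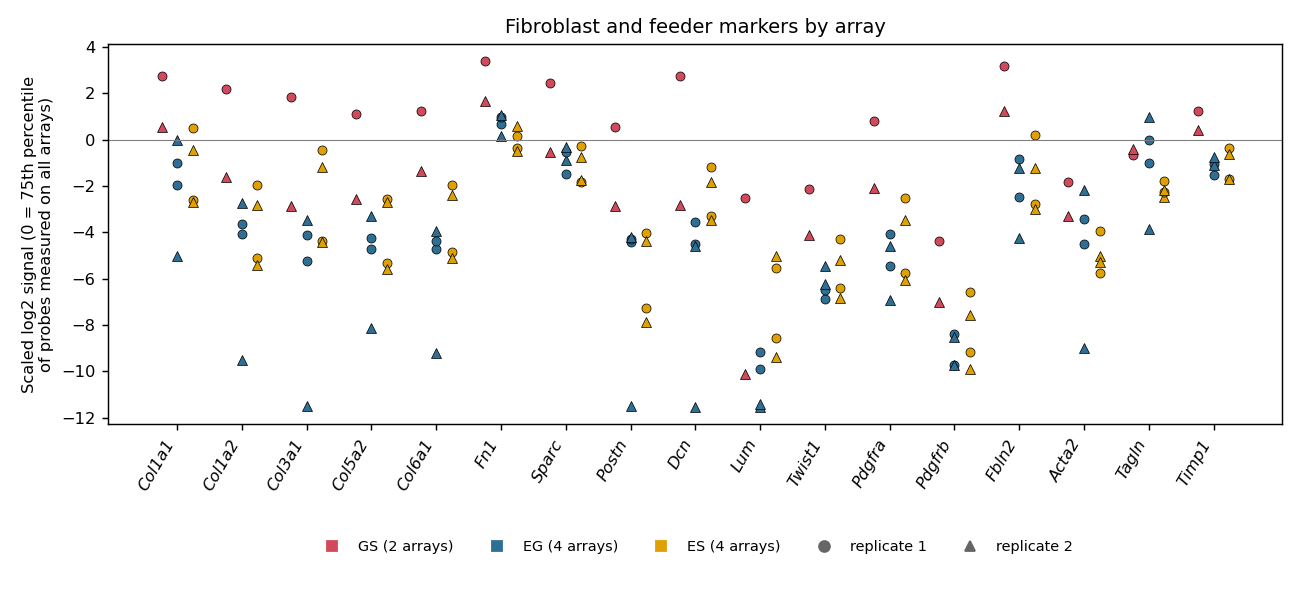
Scaled log2 signal of 17 fibroblast and feeder markers on each array, GS in red, EG in blue and ES in yellow, circles for replicate 1 and triangles for replicate 2. GS replicate 1 lies above replicate 2 for every marker drawn but Tagln, and for Col1a1, Col1a2 and Fbln2 both lie above the 8 pluripotent arrays.

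Medians over a whole chromosome were taken for the genes that passed the background flag on each of the 10 arrays, as GS mean minus array, so that a negative value means an EG or ES array above GS. For 263 X-linked genes, relative to autosomal genes, the female ES arrays gave -0.69 and -0.85 and the 4 male arrays -0.06 to 0.11. The 2 female EG arrays differed, replicate 1 at -0.09 and replicate 2 at -0.78, so that replicate 1 lay near the male lines. On autosomes, the male EG arrays were both at -0.36 for 702 genes of chromosome 11, and the male ES arrays at -0.30 and -0.32 for 452 genes of chromosome 8. These were the lowest autosomes of those lines, the next lowest being -0.135 and -0.11. Differences from GS of single genes on these chromosomes include that shift.

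**Figure D5:**
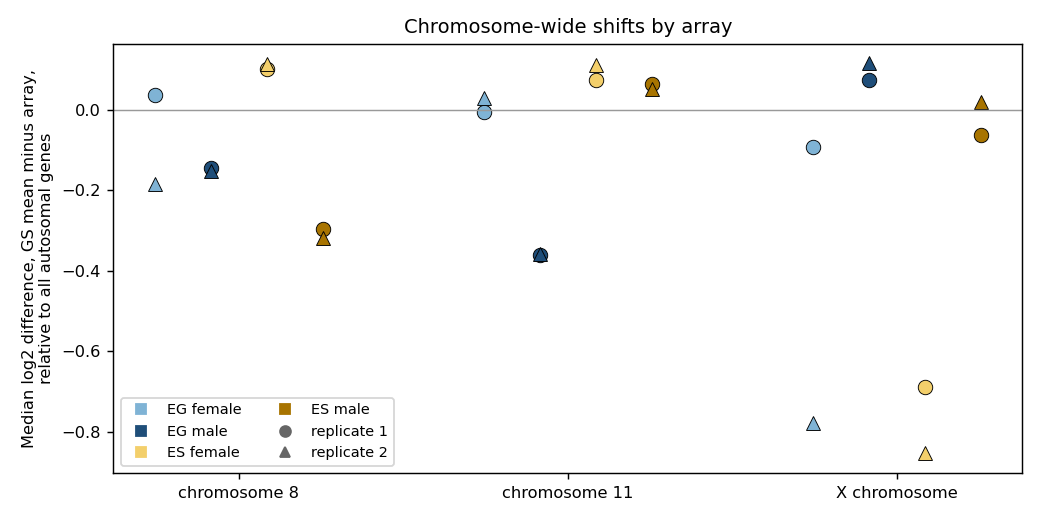
Median log2 difference between the GS mean and each EG or ES array for genes of 3 chromosomes, less the median of all autosomal genes; colours give the line and sex, circles replicate 1 and triangles replicate 2. Female ES arrays and female EG replicate 2 lie at -0.85 to -0.69 on the X chromosome while female EG replicate 1 lies at -0.09, and negative values, which mean an array above GS, stand out for male EG cells on chromosome 11 and male ES cells on chromosome 8.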

How the data were processed

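Total RNA was labelled with Cy3 and hybridised to single-colour Agilent arrays. The intensity values are processed signals, background-subtracted by the scanner's Feature Extraction software before the authors deposited them, per the file headers. The authors' deposited log2 table equals log2 of those signals minus each array's median, to within 0.00252, and was used only as an alternative. Control and non-uniform spots were left out, and each array was scaled by the 75th percentile of its 7227 probes well above background on all 28 arrays. The probe brightest on average over all 28 arrays stood for a gene, and names came from RefSeq accessions (16760 probes). A model over 14 groups was fitted with limma 3.58.1 in R 4.3.3, with Benjamini-Hochberg adjustment and a threshold of 0.05. The method was tested on simulated data with independent arrays, no slide effect and no scaling step. That test therefore cannot bear on slide or on scaling. An "at least" fold sets the bright group's mean against, on each dim array, the higher of the lowest signal among probes well above background and the probe's own. Gene lists and members were chosen with earlier results of these data known. The rule for naming genes took 30 key genes, in each list up to 6 members with the largest differences among genes in both and any member that moved against its list, and the 12 highest and 12 lowest genes outside the lists; other list members named in the text were chosen after their values were seen. Of the key genes, Dppa5a, Sall4, Ret, H19 and Meg3 had no named probe. The number of arrays, 2 a group, limits the precision. Some genes that the naming rule selects are not reported here.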

Additional observations from a re-analysis of the deposited data

Results flagged for a closer look

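In the 4 EG arrays, 1 array stood away from the others for 3 key genes, with a gap over the range above Dixon's 95% critical value. Sox2 had a ratio of 0.943 (arrays at -0.13, -0.11, -0.08 and 0.74), Nanog 0.872 (0.06, 0.18, 0.18 and 1.02) and Dnmt3a 0.869 (-4.46, -4.42, -4.39 and -3.98). For all 3 genes the array that stood away was EG female replicate 2. Chance alone marks about 1 in 20 groups, and 50 groups were examined. These groups reuse the same arrays and pool both sexes, so they are not independent.

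For 3 genes the GS mean lay between the pluripotent kinds, lower than EG and higher than ES. The clone AK085606 differed by 7.71 between EG and ES (log2, EG minus ES), with GS at -5.42 and -4.91. A gene known only by a cluster number differed by 3.51, with GS at -6.83 and -8.22, the second of them inside the ES range. Srgn, which encodes the proteoglycan serglycin, differed by 2.19, with GS at -5.15 and -5.26, and was -1.04 against EG and 1.15 against ES.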

How the results depend on the processing

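With slide as a random block 1898 genes were called between GS and the pluripotent lines, 889 against EG, 1126 against ES and 675 in both, all 675 also in the set of 7124. Of the 137 named genes 55 then lost their call. The deposited values called 6928 against ES and 4179 in both, and turned the sign of Bcl6b (-0.30) and Zrsr1 (-0.26). Leaving out 1 array at a time gave 6216 to 10520 calls for the pooled comparison, 5422 to 9127 against EG, 6223 to 10247 against ES and 4272 to 6517 in both, each lowest without GS replicate 1. Over all alternatives, values for the named genes kept direction and side of the threshold 2844 times, lost the call 160 times and gained it 3 times. The replicate number as a block gave 11322, 9829, 10752 and 7284 calls. Same-numbered arrays deviated together with correlations of only -0.0729 to 0.172. Each group gave a single difference between replicates, so these values cannot settle if the numbers pair the samples. Genes dim on all arrays of 1 side are given as bounds, and a difference against a side that was dim on some arrays rests partly on signal not above background.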
